A study of Mus musculus with 6 samples.

Results

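The genes of the proteasome were examined in Tmod3 knockout and wild type livers of E14.5 mouse embryos. Members were all probe sets with a single gene symbol that starts with Psma to Psmg followed by a digit. That rule found 56 probe sets for 50 genes among 19938 named genes. Where a gene had several probe sets, the brightest on average over the 6 arrays stood for it, so no difference between genotypes entered the choice. Of the 50 genes, 48 encode proteasome subunits, their regulators or their assembly factors, and 2 only share the name pattern.

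The Tmod3 knockout group held livers of 3 Tmod3-/- embryos, whose livers the labels call small and which were anemic. The wild type group held livers of 3 Tmod3+/+ embryos of normal phenotype. All 6 were of the strain C57BL/6J and each array carried total RNA of a separate embryo, on the Affymetrix MoGene 1.0 ST array, which places many probes along each transcript. The knockout allele, its driver and the litters are not given in the sources used here. Tmod3 encodes tropomodulin 3, which caps the pointed ends of actin filaments. All values are deposited values read as log2, a fold change is knockout minus wild type on that scale, and the number of arrays limits their precision.

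The proteasome is the protease that destroys proteins marked with chains of ubiquitin. Its core particle is a barrel of stacked rings: outer rings of alpha subunits (Psma genes) gate the entry, and inner rings of beta subunits (Psmb genes) hold the active sites. A regulatory particle of base (Psmc and several Psmd genes) and lid (other Psmd genes) binds the ubiquitin chain, removes it and unfolds the substrate. In maturing red cells the ubiquitin and proteasome system clears proteins and organelle remnants as the cell remodels, and the fetal liver makes most red cells at this age.

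Tmod3 itself read 1.32, 2.36 and 1.30 in the knockout livers, against 4.49, 4.78 and 4.90 in the wild type livers, which matches the labels. Array medians were 1.36 to 1.43, and a gene near that value is near the floor of the measurement. The 90th percentile ranged from 3.67 to 4.13 between arrays and was highest in wild type replicates 2 and 3. Over all genes, 3 of 19938 (0.015%) passed the test at an adjusted p under 0.05 (limma with Benjamini-Hochberg adjustment), and all 3 were lower in knockout liver. Values of wild type replicate 1 had a correlation of 0.983 with knockout replicate 1 and with wild type replicate 2, and of 0.978 with wild type replicate 3. All pairs of arrays lay between 0.974 and 0.990, and wild type replicates 2 and 3 had the highest correlation, 0.990. Wild type replicate 1 was thus less like these arrays than they were like each other. Its correlations still lay within the range of all pairs. The values over all proteasome genes, and those of single genes that it moved most, are also given without wild type replicate 1.

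No proteasome gene passed the test. The smallest adjusted p was 0.198, for the lid subunit gene Psmd12. By sign, 41 of the 50 genes were lower and 9 higher in knockout liver, with a median log2 fold change of -0.25 and a range of -0.91 to 0.24. Over all 19938 genes the median was 0.01, and 48.4% were lower. Of the 2545 genes whose mean level reached 3, however, 80.6% were lower and the median was -0.25, the same as for the proteasome genes. The 31 proteasome genes at that level had a median of -0.30, with 28 lower and 3 higher.

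At an unadjusted p under 0.05, 9 proteasome genes were lower and 0 were higher (limma). That is 18.0% of the 50, where 6.44% of all genes were lower by this measure and 2.59% higher. Among the 31 proteasome genes with a mean of at least 3, 6 were lower at that p (19.4%), where 26.6% of all genes at that level were. The knockout and wild type arrays did not overlap for 8 genes that were lower and 1 that was higher, where 7.1% of all genes were lower and 6.14% higher without overlap. At a mean of at least 3 the share lower without overlap was 21.3% of all genes, and 4 of the 31 proteasome genes. The plot of fold change against level shows the proteasome genes scattered around the medians of all genes in the same range, with 33 of 50 below them.

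**Figure D1:**
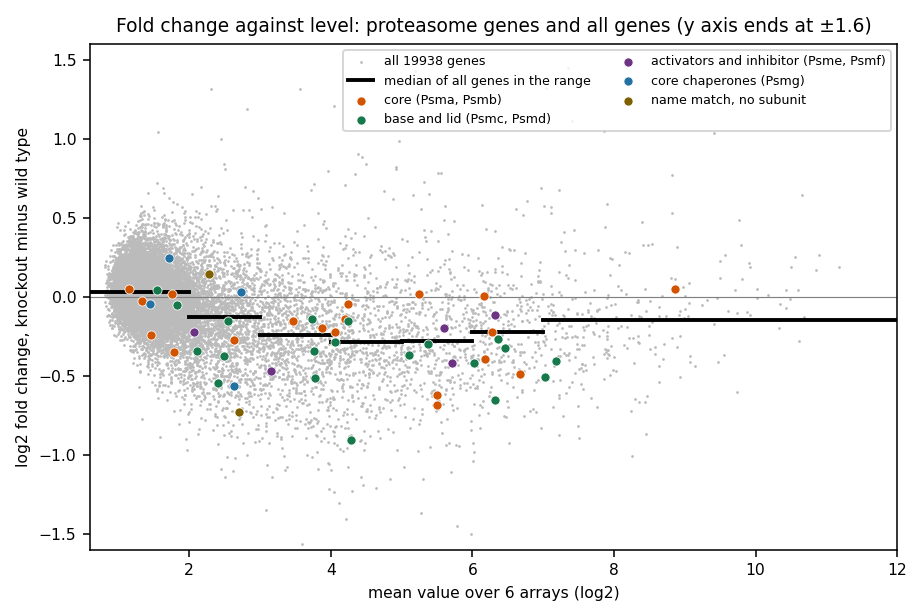
Log2 fold change, knockout over wild type (y axis) against the mean value over 6 arrays (x axis, log2) for all 19938 genes in grey and the 50 proteasome genes in colour by group; black lines are the medians of all genes in 7 ranges of level. Medians of all genes are -0.24 from 3 to 4 and -0.28 from 4 to 5 and from 5 to 6, and the median of the proteasome genes is -0.25; the y axis leaves out genes beyond 1.6 in size.

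The proteasome genes also followed single embryos. Over the 31 genes with a mean of at least 3, the mean value was 5.16, 5.30 and 5.01 in the knockout livers, against 5.11, 5.51 and 5.80 in the wild type livers. Wild type replicate 1 thus lay below knockout replicates 1 and 2, and the groups overlapped. The mean over all 2545 genes of that level was 4.73, 4.78 and 4.67 in the knockout livers, against 4.72, 5.09 and 5.10 in the wild type livers. The difference between these means was 0.43, 0.52 and 0.34 in the knockout livers, against 0.39, 0.43 and 0.69 in the wild type livers. Set against all genes with a mean of at least 3 on the same array, the proteasome genes overlapped between genotypes, and wild type replicate 3 stood highest. Those genes were not matched for level and averaged lower than the proteasome genes on every array. That liver had the highest value of the 6 for 32 of the 50 genes, and for 25 of the 31 (80.6%), where it was the highest for 39.1% of all genes with a mean of at least 3.

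**Figure D2:**
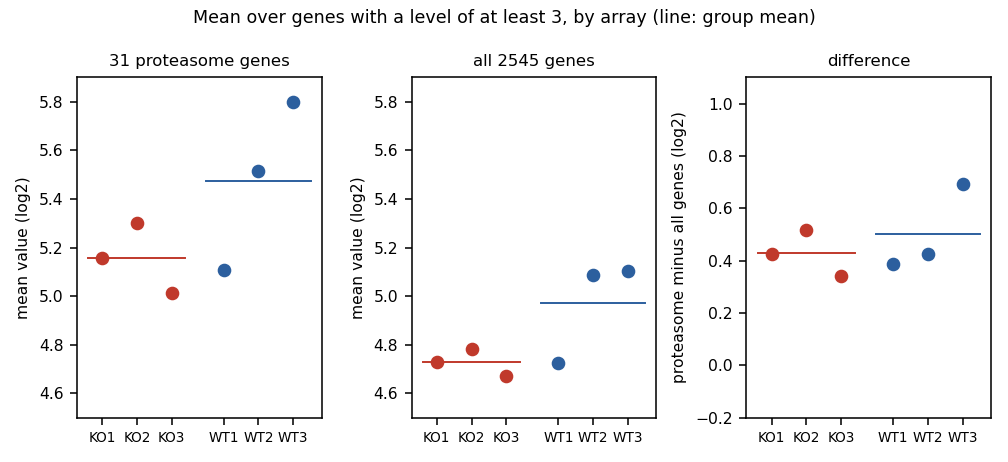
Mean value (y axis, log2) on each array, knockout (KO1 to KO3) left of wild type (WT1 to WT3), for the 31 proteasome genes with a mean of at least 3, for all 2545 genes of that level, and for the difference between them; lines are group means. The difference is 0.34 to 0.52 in the knockout livers and 0.39 to 0.69 in the wild type livers, so the groups overlap.

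Leaving out single wild type livers moved the proteasome median in opposite directions. Without wild type replicate 1 the median was -0.44, 25 of the 50 genes (50%) were lower at an unadjusted p under 0.05 against 11.2% of all genes and 45.1% of those with a mean of at least 3, and 2 genes, Psmd12 and Psmc3ip, passed over all genes (limma adjusted p = 0.0450 and 0.0456), both lower, where 94 of 19938 genes (0.471%) were lower by that test. The class medians were then -0.47 for the alpha ring and the beta ring without active sites, -0.48 for the constitutive catalytic genes, -0.52 for the base chaperones and for the activators with the inhibitor, and -0.43 for the other base genes. The lid had -0.57 and the base ATPases -0.41, and the core chaperones and the immunoproteasome had -0.18 and 0.017. Without wild type replicate 3 the median was -0.13, 6 genes (12%) were lower at that p, and the shares were 4.46% of all genes and 19.4% at a mean of at least 3. The medians of the beta ring without active sites, the constitutive catalytic genes and the core chaperones then turned to 0.077, 0.20 and 0.11. Those of the alpha ring, the base classes, the lid and the activators with the inhibitor stayed negative. After the arrays were quantile normalized again, 31 of the 50 were lower (62%, where 52.4% of all genes and 57.6% of those with a mean of at least 3 were), 7 at an unadjusted p under 0.05 (14%, against 4.66% of all genes and 13.2% at a mean of at least 3). The median of the 50 was then -0.11, against -0.01 for all genes. For the 31 proteasome genes with a mean of at least 3 it was -0.12, with 4 lower at that p, against -0.06 for all genes of that level. Since only 31 of the 50 reach that level, the shares of the 50 and of all genes at that level are not like for like.

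In bulk tissue, fewer cells of a type and less RNA per cell cannot be told apart. Markers of the main cell types were lower too: all 9 measured erythroid markers of 12 listed were lower, 6 of them at an unadjusted p under 0.05 (80.6% and 26.6% of all genes with a mean of at least 3), and 4 at that p after renewed quantile normalization. Their mean level was 4.44, 4.61 and 4.28 in the knockout livers, against 4.70, 5.0 and 5.12 in the wild type livers. Of 11 measured hepatoblast and hepatocyte markers of 12 listed, 9 were lower, 6 at that p, and 2 were slightly higher (Afp 0.04 and Trf 0.05). Their mean level was 6.49, 6.55 and 5.61 in the knockout livers, against 6.59, 6.91 and 6.97 in the wild type livers. For both lists every knockout liver lay below every wild type liver, and the liver label was borne out by albumin (Alb), at 9.43 in knockout and 10.04 in wild type liver on average. Of 8 endothelial markers, 7 were higher, 1 at that p, with a median of 0.12 and 4 at or below the array medians. The part of these cells in the proteasome values was not tested.

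The alpha ring had its clearest differences in Psma2 and Psma4. Psma2, an alpha subunit of the core, read 5.02, 5.49 and 4.97 in the knockout livers, against 5.71, 5.99 and 5.84 in the wild type livers. The groups did not overlap, with a log2 fold change of -0.68 (SE 0.16, limma unadjusted p = 0.00240, adjusted p = 0.264). Psma4, another alpha subunit, read 6.57, 6.47 and 6.22 in the knockout livers, against 6.83, 6.91 and 7.0 in the wild type livers. It also had no overlap, with a log2 fold change of -0.49 (SE 0.12, limma unadjusted p = 0.00369, adjusted p = 0.299). After renewed quantile normalization the log2 fold changes were -0.46 and -0.37, with unadjusted p of 0.00981 and 0.00839.

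The other alpha ring genes lay close together between genotypes or varied among embryos. Psma3, whose product is an alpha subunit that also binds several proteins degraded without ubiquitin, read 8.99, 8.90 and 8.78 in the knockout livers, against 8.74, 8.91 and 8.88 in the wild type livers. Psma5 and Psma6 had log2 fold changes of 0.02 and 0.01. Psma7 averaged 5.98 ± 0.61 in knockout livers, against 6.38 ± 0.51 in wild type livers (n = 3 each, SD), so its log2 fold change of -0.39 was smaller than the spread. Psma1 had -0.22. The median over the 7 genes was -0.22, with 4 lower and 3 higher. The beta ring subunits without an active site, Psmb1, Psmb2, Psmb3 and Psmb4, had log2 fold changes of -0.15, -0.20, -0.27 and -0.22, none with an unadjusted p under 0.05. For all 4, wild type replicate 3 was the highest array (4.26 for Psmb1, against 2.74 and 3.62 in the other wild type livers). After renewed quantile normalization Psmb1, Psmb2 and Psmb4 were higher in knockout liver by 0.08, 0.03 and 0.01.

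**Figure D3:**
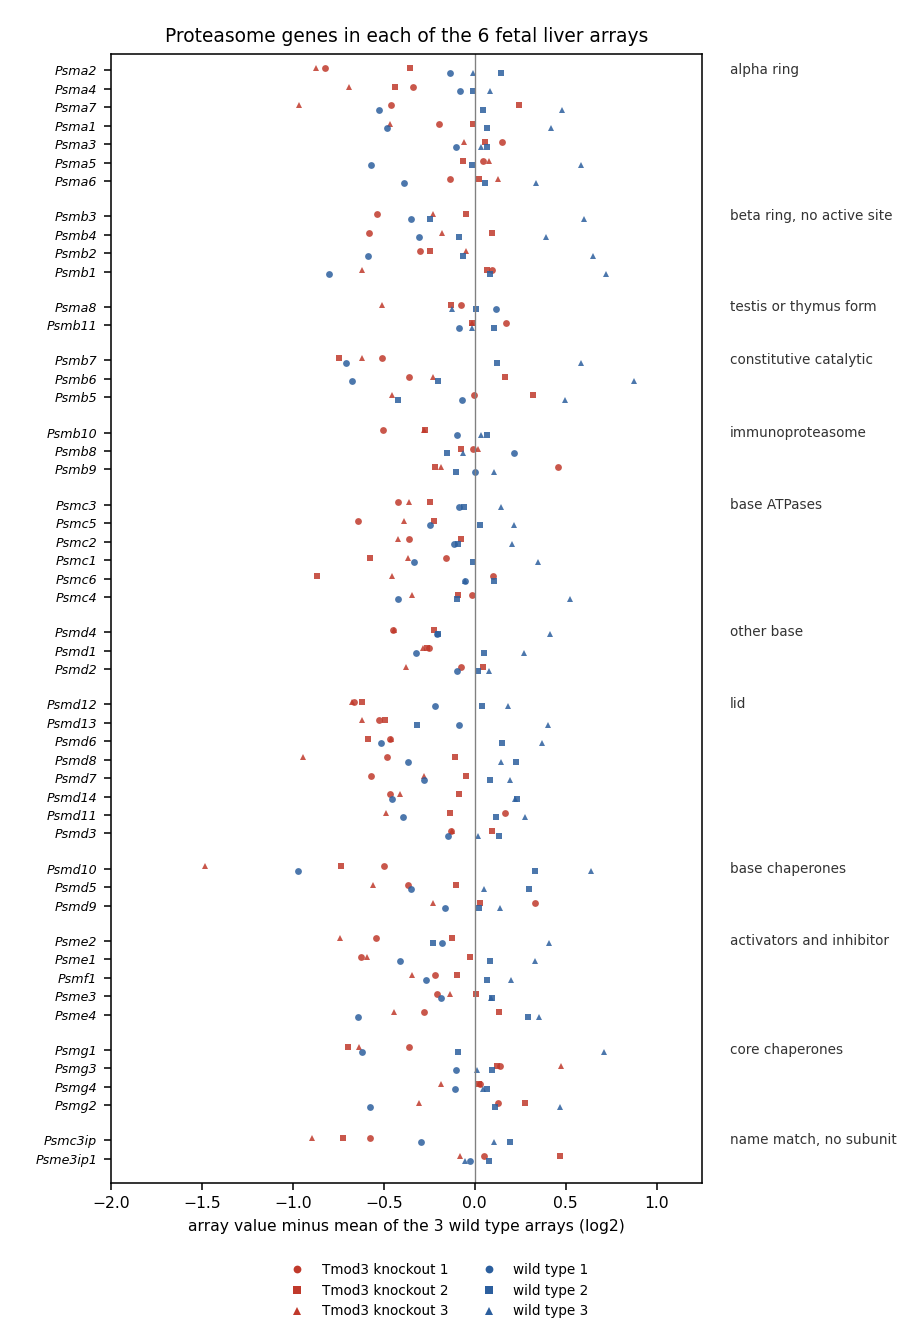
Value of each of the 50 genes on each array minus the mean of the 3 wild type arrays for that gene (x axis, log2), with genes down the page by class; red symbols are knockout and blue symbols wild type livers, and circle, square and triangle are replicates 1, 2 and 3. Blue triangles (wild type replicate 3) lie rightmost for 32 of the 50 genes, and red and blue symbols overlap for 41.

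The active sites are carried by Psmb5, Psmb6 and Psmb7, which in the constitutive core cut after hydrophobic, acidic and basic residues. Psmb7 read 5.30, 5.07 and 5.19 in the knockout livers, against 5.10, 5.94 and 6.39 in the wild type livers. Its knockout values were close together and wild type replicate 1 lay among them, so that the log2 fold change of -0.62 (SE 0.28) had an unadjusted p of 0.0586 (limma adjusted p = 0.576). Without wild type replicate 1 it was -0.98 (limma adjusted p = 0.0537), and it ranged from -0.98 to -0.33 when 1 array at a time was left out. Psmb6 read 3.91, 4.44 and 4.04 in the knockout livers, against 3.60, 4.07 and 5.15 in the wild type livers. Psmb5 read 4.27, 4.59 and 3.82 in the knockout livers, against 4.20, 3.85 and 4.77 in the wild type livers. For these 2 genes the groups overlapped, though wild type replicate 3 lay above every knockout liver. The log2 fold changes were -0.14 and -0.05, and without wild type replicate 3 both were higher in knockout liver, by 0.30 and 0.20.

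The immunoproteasome replaces those 3 active subunits with Psmb8, Psmb9 and Psmb10, in blood cells and under interferon, and so alters the peptides that class I molecules present. Psmb10, the counterpart of Psmb7, read 1.46, 1.69 and 1.69 in the knockout livers, against 1.87, 2.03 and 2.0 in the wild type livers. The groups did not overlap, with a log2 fold change of -0.35 (SE 0.11, limma unadjusted p = 0.0132, adjusted p = 0.407), at levels not far above the array medians. Psmb9, the counterpart of Psmb6, read 2.20, 1.53 and 1.56 in the knockout livers, against 1.74, 1.64 and 1.85 in the wild type livers. Psmb8, the counterpart of Psmb5, read 1.34, 1.27 and 1.37 in the knockout livers, against 1.56, 1.20 and 1.28 in the wild type livers. Psmb8 was therefore at the floor of the measurement in both groups.

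Genes that act with the immunoproteasome were mostly dim too. In the gene table of GRCm38.p6, Psmb8 lies between the peptide transporter genes Tap1 and Tap2, and Psmb9 next to Tap1. Of 18 listed genes of class I presentation and the interferon response, 13 were measured, 1 was lower at an unadjusted p under 0.05 and 0 were higher (background 6.44% and 2.59%), with a median log2 fold change of -0.10. The 1 gene was B2m, which encodes the light chain of class I molecules, with -0.44 (limma adjusted p = 0.476). Next by p were Ifit1 (-0.19) and Ube2l6 (-0.55), both interferon-induced. Markers of cells that may carry immunoproteasomes gave the following values: 12 macrophage markers of 12 listed, 9 of them lower, had mean levels of 2.10, 2.03 and 1.62 in the knockout livers, against 2.0, 2.17 and 2.34 in the wild type livers. The 9 neutrophil markers had 2.87, 2.48 and 2.34 in the knockout livers, against 2.53, 2.44 and 2.72 in the wild type livers. The groups overlapped for both lists. Of 8 measured lymphoid markers, 6 lay at or below the array medians. The part of these cells in the Psmb10 values was not tested.

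The testis form Psma8 and the thymus form Psmb11 read 1.46 and 1.14 on average. Psmb11 lay below the array medians in both groups. Psma8 was near them, at 1.34 in knockout and 1.58 in wild type liver, with overlap.

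The base of the regulatory particle holds a ring of 6 ATPases that unfold the substrate and open the gate. All 6 were lower in knockout liver, with a median log2 fold change of -0.36, and 2 had an unadjusted p under 0.05. Psmc3 read 3.52, 3.69 and 3.58 in the knockout livers, against 3.85, 3.88 and 4.08 in the wild type livers. Its groups did not overlap, with a log2 fold change of -0.34 (SE 0.11, limma unadjusted p = 0.0137, adjusted p = 0.408). Psmc5 read 5.59, 6.01 and 5.84 in the knockout livers, against 5.99, 6.26 and 6.45 in the wild type livers, where knockout replicate 2 lay just above wild type replicate 1. Its log2 fold change was -0.42 (SE 0.16, limma unadjusted p = 0.0273, adjusted p = 0.483). Psmc1, Psmc2, Psmc4 and Psmc6 had -0.37, -0.29, -0.15 and -0.41, all with overlap. After renewed quantile normalization neither kept an unadjusted p under 0.05, with log2 fold changes of -0.12 for Psmc3 and -0.23 for Psmc5, the median of the 6 was -0.14, and Psmc4 turned to 0.0013.

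The other base subunits were 3 genes with a median of -0.27. Psmd4, which encodes a receptor for ubiquitin chains, read 2.23, 2.46 and 2.24 in the knockout livers, against 2.48, 2.48 and 3.10 in the wild type livers. The highest knockout value lay just under the lowest wild type value, and the log2 fold change was -0.37 (SE 0.18, limma unadjusted p = 0.0688, adjusted p = 0.593). Psmd1 and Psmd2, the large scaffold subunits of the base, had -0.27 and -0.14. The 3 knockout arrays for Psmd1 were within 0.03 of each other (6.24, 6.24 and 6.21), against 6.18, 6.55 and 6.77 in the wild type livers.

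The lid cuts the ubiquitin chain from the substrate before it enters the core, through the metalloprotease Psmd14. The lid subunit gene Sem1 has no Psm name and was listed with the partners. It read 5.78, 5.62 and 5.76 in the knockout livers, against 5.91, 5.45 and 5.80 in the wild type livers. Its log2 fold change was 9.97e-05, and it is not in the lid counts and medians here. All 8 lid genes with Psmd names were lower in knockout liver, with a median log2 fold change of -0.41, and 3 had an unadjusted p under 0.05. The median was -0.23 after renewed quantile normalization, with Psmd11 turned to 0.076 and the other 7 still lower. It was -0.27 without wild type replicate 3 and -0.57 without wild type replicate 1. The difference between the lid and the other classes was not tested, and their order turned with single arrays: without knockout replicate 3 the medians were -0.30 for the lid and -0.35 for the ATPases. Psmd12, a scaffold subunit of the lid, read 5.98, 6.03 and 5.97 in the knockout livers, against 6.43, 6.68 and 6.83 in the wild type livers. The 3 knockout livers were nearly alike and all lay below the wild type livers, a 1.57-fold lower value with a log2 fold change of -0.65 (SE 0.12, limma unadjusted p = 0.000666, adjusted p = 0.198). After renewed quantile normalization it read 6.07, 6.08 and 6.11 in the knockout livers, against 6.56, 6.56 and 6.66 in the wild type livers, and the log2 fold change was -0.51 (limma unadjusted p = 0.000479, adjusted p = 0.196). When 1 array at a time was left out, the log2 fold change ranged from -0.76 to -0.56.

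Psmd13, another lid subunit, read 2.16, 2.19 and 2.06 in the knockout livers, against 2.60, 2.36 and 3.09 in the wild type livers. The groups did not overlap, with a log2 fold change of -0.55 (SE 0.18, limma unadjusted p = 0.0145, adjusted p = 0.409). Psmd6 read 6.81, 6.69 and 6.81 in the knockout livers, against 6.76, 7.43 and 7.65 in the wild type livers. Here wild type replicate 1 lay within the knockout range, with a log2 fold change of -0.51 (SE 0.21, limma unadjusted p = 0.0418, adjusted p = 0.534), and -0.76 without that liver (limma adjusted p = 0.0520). The log2 fold change of Psmd6 ranged from -0.76 to -0.32 when 1 array at a time was left out. Psmd8 had -0.51 with an unadjusted p of 0.0591. Psmd14, the metalloprotease, had -0.32, Psmd7, its partner without activity, -0.30, Psmd11 -0.15 and Psmd3 -0.05, all with overlap.

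**Figure D4:**
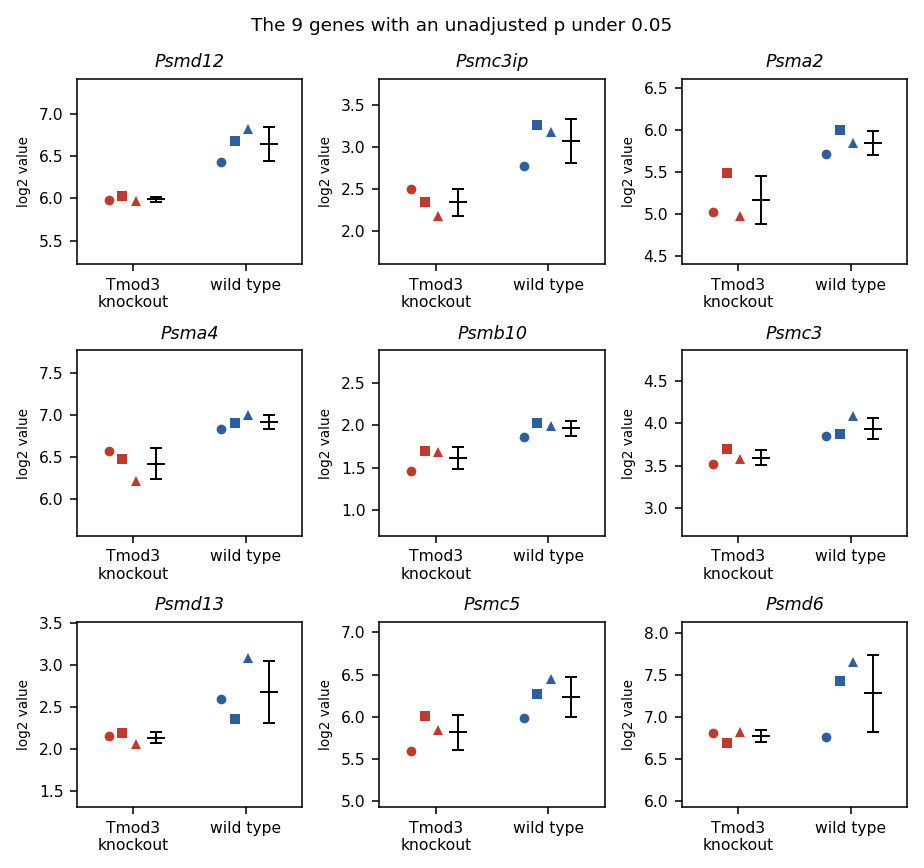
Values (y axis, log2) of the 9 genes with a limma unadjusted p under 0.05, knockout left of wild type, ordered by p; circle, square and triangle are replicates 1, 2 and 3, and bars are means ± SD (n = 3). The groups do not overlap except for Psmc5 and Psmd6, and every axis spans the same 2.2 log2 units.

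Promoters were searched for sequences known from proteasome gene control. When proteasomes are blocked, the transcription factor encoded by Nfe2l1 escapes destruction and raises proteasome genes through antioxidant response elements. The core of that element was searched as TGACNNNGC, the box of the factor NF-Y as CCAAT, and the core of the element of nuclear respiratory factor 1, an unrelated protein whose short name is shared with the product of Nfe2l1, as CGCATGCG. All were searched on both strands, in the window of 250 bases before to 50 after each start in a RefSeq table of GRCm38.p6, with 46 windows for 42 of the 50 genes. The antioxidant core was in 6 of the 46 windows (13.0%) and in 12.4% of all 32851, CCAAT in 16 (34.8%, against 37.4%), and the nuclear respiratory factor 1 core in 2 (4.35%, against 1.87%). The genes with the antioxidant core were Psmd12 (log2 fold change -0.65), Psmc6 (-0.41), Psme4 (-0.20), Psmb6 (-0.14), Psmb5 (-0.05) and Psmd9 (0.04), so genes with it included both low and near-zero fold changes. Those with the nuclear respiratory factor 1 core were Psma2 and Psmg1, with -0.68 and -0.57. The windows are shown for Psmd12 and Psma2, the 2 subunit genes with the smallest p, and for Psme4, which shares the antioxidant core with Psmd12 but had an unadjusted p of 0.491. Capitals mark the matches, 5′ to 3′ on the strand of the gene, which is the plus strand for all 3. In Psmd12 and Psme4 the antioxidant core lies on the opposite strand, with its first printed base 247 and 7 bases before the start. In Psma2 the nuclear respiratory factor 1 core begins 189 and again 126 bases before the start, and the CCAAT box 54 bases before it.
Psmd12 promoter, chr11:107479278-107479577, plus strand, GRCm38.p6: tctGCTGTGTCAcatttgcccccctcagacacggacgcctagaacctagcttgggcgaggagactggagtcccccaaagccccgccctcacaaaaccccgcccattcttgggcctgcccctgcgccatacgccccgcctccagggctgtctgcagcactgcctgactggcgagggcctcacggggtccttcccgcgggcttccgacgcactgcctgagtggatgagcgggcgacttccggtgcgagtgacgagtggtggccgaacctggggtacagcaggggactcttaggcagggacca
Psma2 promoter, chr13:14612992-14613291, plus strand, GRCm38.p6: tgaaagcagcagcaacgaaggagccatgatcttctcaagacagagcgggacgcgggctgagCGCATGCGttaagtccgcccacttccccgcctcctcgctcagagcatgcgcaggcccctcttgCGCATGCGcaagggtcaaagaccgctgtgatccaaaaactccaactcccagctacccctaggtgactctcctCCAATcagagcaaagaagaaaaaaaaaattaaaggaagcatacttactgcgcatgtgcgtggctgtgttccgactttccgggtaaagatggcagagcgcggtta
Psme4 promoter, chr11:30771525-30771824, plus strand, GRCm38.p6: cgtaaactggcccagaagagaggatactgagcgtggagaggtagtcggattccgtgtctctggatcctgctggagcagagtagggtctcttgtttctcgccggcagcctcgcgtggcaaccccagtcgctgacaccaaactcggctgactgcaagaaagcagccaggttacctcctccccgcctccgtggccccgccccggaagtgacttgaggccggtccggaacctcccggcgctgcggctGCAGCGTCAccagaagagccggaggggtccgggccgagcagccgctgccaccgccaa

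The base is put together by chaperones that are not part of the finished particle, and 3 of them carry Psmd names. Psmd10, which encodes gankyrin, had the largest log2 fold change of the 50 genes in size, -0.91 (SE 0.41, limma unadjusted p = 0.0593, adjusted p = 0.577). It read 4.24, 4.0 and 3.25 in the knockout livers, against 3.77, 5.07 and 5.38 in the wild type livers. Wild type replicate 1 lay inside the knockout range, and the spread within each group was wide. Without that liver the log2 fold change was -1.39 (limma adjusted p = 0.0730). When 1 array at a time was left out, it ranged from -1.39 to -0.59. Psmd10 is the X-linked gene among the 50, and the X-inactivation transcript Xist read 6.47, 1.03 and 7.67 in the knockout livers, against 5.79, 7.21 and 6.53 in the wild type livers. Knockout replicate 2, with Xist at the floor, was also the highest array for the Y-linked genes Eif2s3y (4.21), Uty (2.41) and Kdm5d (1.84). By these genes it was the only male liver, so sex was not balanced between the groups. No comparison reported here took sex into account. Without that liver the median of the 50 genes was -0.31, and 14 had an unadjusted p under 0.05 (limma). Knockout replicate 2 held the middle Psmd10 value of its group. The part of sex in the values of Psmd10 and of the other genes was not tested. Psmd5 had -0.34 and Psmd9 0.04.

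Activators can cap the core in place of the regulatory particle. Psme1 and Psme2 form the interferon-inducible ring activator. Psme2 read 2.85, 3.26 and 2.65 in the knockout livers, against 3.21, 3.16 and 3.80 in the wild type livers, with a log2 fold change of -0.47 (SE 0.21, limma unadjusted p = 0.0569, adjusted p = 0.572). Psme1 read 5.29, 5.89 and 5.32 in the knockout livers, against 5.51, 6.00 and 6.25 in the wild type livers, with -0.42. Both overlapped between groups at knockout replicate 2. Psme3, the nuclear ring activator, had -0.11, Psme4, which encodes the large single-chain activator, -0.20, and Psmf1, which encodes an inhibitor of the core, -0.22. All 5 were lower and 0 had an unadjusted p under 0.05 (limma). After renewed quantile normalization Psme3 and Psme4 were at 0.032 and 0.041, and without wild type replicate 1 the median of the 5 was -0.52, against -0.22 with it. That median ranged from -0.52 to -0.12 when 1 array at a time was left out. Psme2b had no probe set of its own and was not analysed here.

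The chaperones that build the core, Psmg1 to Psmg4, went both ways. Psmg3 was the 1 gene of the 50 whose knockout livers all lay above all wild type livers, at 1.73, 1.71 and 2.07 against 1.49, 1.69 and 1.61 in the wild type livers. The log2 fold change was 0.24 (SE 0.13, limma unadjusted p = 0.0928, adjusted p = 0.649), at levels near the array medians. Psmg1, which pairs with Psmg2, had -0.57 with an unadjusted p of 0.0911, and its range in wild type liver (2.30, 2.83 and 3.63) was wider than that difference. Psmg2 and Psmg4 had 0.03 and -0.05.

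Of the 2 genes that share only the name pattern, Psmc3ip encodes a partner of the recombinases that pair chromosomes in meiosis, and also binds nuclear receptors and an ATPase subunit of the proteasome base. It read 2.50, 2.35 and 2.18 in the knockout livers, against 2.77, 3.26 and 3.18 in the wild type livers. The groups did not overlap, with a log2 fold change of -0.73 (SE 0.15, limma unadjusted p = 0.00138, adjusted p = 0.218). Psme3ip1, whose product binds the nuclear ring activator, had 0.15 with overlap. Without these 2 genes, the assembly factors, the activators and the inhibitor, the median over the 36 Psm-named genes of the core and regulatory particle was -0.27.

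Genes that work beside the proteasome also had no call. The counts of lower genes that follow, at an unadjusted p under 0.05, stand beside 6.44% of all genes and 26.6% of those with a mean of at least 3, or 4.66% and 13.2% after renewed quantile normalization. Of 12 listed partners, 10 were measured and 2 were lower at an unadjusted p under 0.05 (median log2 fold change -0.18). After renewed quantile normalization 1 was lower and 1 higher at that p (median -0.06). The 2 lower as deposited were Ube3c, a ubiquitin ligase that binds the proteasome, with -0.57 (limma adjusted p = 0.282), and Pomp, the maturation factor of the core, with -0.35 (adjusted p = 0.552). Uchl5, a deubiquitinase of the regulatory particle, had -0.26. Of 16 listed genes for ubiquitin, its activation and its shuttles, 10 were measured, 2 were lower at that p and the median was -0.13 (0 and -0.04 after that normalization, with 1 higher), with -0.48 for the shuttle gene Rad23b, -0.58 for Ufd1, a cofactor of the segregase Vcp, and 0.39 for Ubqln2. Ufd1 passed without wild type replicate 1 (log2 fold change -0.89, limma adjusted p = 0.0487), and its log2 fold change ranged from -0.89 to -0.43 when 1 array at a time was left out.

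The regulators of proteasome genes held 2 lower genes at an unadjusted p under 0.05 among 12 measured of 13 listed, with a median of -0.11, and 2 with a median of -0.05 after renewed quantile normalization. Nfe2l2, the stress factor of the antioxidant response, read 3.77, 3.89 and 3.99 in the knockout livers, against 4.15, 4.65 and 4.28 in the wild type livers, with a log2 fold change of -0.47 (limma adjusted p = 0.396). Ngly1, the enzyme that removes sugar chains and thereby activates the Nfe2l1 product, read 3.33, 3.02 and 3.25 in the knockout livers, against 3.38, 3.83 and 4.21 in the wild type livers, with -0.61 (adjusted p = 0.424). The groups did not overlap for either gene. Mafk, a small partner of these factors, had -0.23. Nfe2l1 itself read 1.31, 2.71 and 2.18 in the knockout livers, against 1.93, 2.06 and 2.63 in the wild type livers, with overlap and a log2 fold change of -0.14.

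The COP9 signalosome is built like the lid from related subunits and removes the ubiquitin-like protein Nedd8 from cullin ligases. Of its 10 measured genes of 10 listed, 9 were lower and 6 had an unadjusted p under 0.05, with a median log2 fold change of -0.36. The Psmd-named lid genes, without Sem1, had -0.41 and 3 of 8. After renewed quantile normalization 8 were lower, 4 at that p, and the median was -0.29. Cops6 had -0.75 (limma adjusted p = 0.184), Cops3 -0.75 and Cops5, the subunit with the active site, -0.52. The difference between these lists was not tested. Of 9 genes for ubiquitin enzymes of red cell maturation, all measured, 4 were lower at an unadjusted p under 0.05, with a median of -0.50, and 3 with a median of -0.25 after renewed quantile normalization. Trim10, a ligase of the erythroid lineage, had -0.88 (limma adjusted p = 0.287), Ube2r2, a conjugating enzyme, -0.59 and the ligase scaffold Cul3 -0.54. With all 6 arrays no gene of these lists, or of the interferon genes, passed over all genes.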

How the data were processed

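The authors deposited log2 values, 1 for each probe set on each array, and the submitters' processing notes name RMA without a version; RMA corrects background, normalizes between arrays and summarises probes. No source used here states the log base, which was read from the range, since raised from base 2 the array maxima are 3457 to 6452, below the scanner limit of 65535. Of 28853 probe sets, 21789 had 1 symbol in the platform annotation, 1621 several and 5443 none there; only the first were used. The test of knockout against wild type used lmFit and eBayes of limma 3.58.1 (R 4.3.3) without covariates or filter, tested on simulated data, with Benjamini-Hochberg adjustment over 19938 genes and a threshold of 0.05. Members, gene lists, motifs and tests were chosen with earlier results of these data known, and lists are described by counts and medians without a test. Per class, up to 4 genes with the smallest p were named, with all immunoproteasome genes and their counterparts; of other lists up to 3. Other members, named to account for each, were chosen after their values were seen, as were Nfe2l1, Xist, Eif2s3y, Uty, Kdm5d, Alb, Afp and Trf. Promoter sequences are from RefSeq, GRCm38.p6; 2 of the 3 motifs are the cores of longer forms searched first. Replicates correlated at 0.978 to 0.990 within groups, so no array was a copy. P-values measure the spread between these embryos. Same-numbered arrays of both groups did not pair (correlation of deviations -0.11 to 0.11). Immunoproteasome genes minus their counterparts on the same array, compared as knockout minus wild type, gave 0.02 for Psmb8, 0.16 for Psmb9 and 0.27 for Psmb10. The exact permutation p was 0.6 or more for each. With 3 against 3 arrays that p cannot fall below 0.1, so the test cannot decide, and the immunoproteasome probes are near the floor.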

Additional observations from a re-analysis of the deposited data

How the results depend on the processing

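Precision is limited by the 3 arrays per group. The count of genes called over all genes was 3 as deposited, 0 with the replicate number as a block, 6 after renewed quantile normalization, 8 after cyclic loess, 15 when only genes with a mean of at least 3 were fitted and 11 with array weights; it ranged from 0 to 95 when 1 array was left out. Proteasome genes called ranged from 0 to 2 when 1 array was left out (2 without wild type replicate 1) and stayed at 0 under the other alternatives run. Those with an unadjusted p under 0.05 numbered 9 as deposited, 4 when only genes with a mean of at least 3 were fitted, 19 with array weights, 11 with the replicate block and 6 to 25 when 1 array was left out (14 without knockout replicate 2, the male liver by Xist and the Y-linked genes). The median of the 50 genes was negative under every alternative run, -0.30 to -0.10, and -0.44 to -0.13 when 1 array was left out; array weights gave -0.30 and centring on array medians -0.29. The replicate block changed no proteasome call.

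Renewed quantile normalization turned the beta ring median to 0.023, the constitutive catalytic median to 0.084, the core chaperone median to 0.070, Psmb4 to 0.015, Psmb2 to 0.031, Psmb1 to 0.085, Psmb5 to 0.16, Psmb6 to 0.084, Psmd2 to 0.090, Psme3 to 0.032, Psmc4 to 0.0013, Psmd11 to 0.076, Psme4 to 0.041 and Afp to -0.10. Cyclic loess turned the beta ring median to 0.032, the constitutive catalytic median to 0.10, the core chaperone median to 0.062, Psmb4 to 0.021, Psmb2 to 0.042, Psmb1 to 0.070, Psmb5 to 0.20, Psmb6 to 0.10, Psmd2 to 0.10, Psme3 to 0.027, Psmb11 to -0.0027, Psmd11 to 0.093 and Afp to -0.091. Centring on array medians turned Psmb9 to -0.019, Psmg2 to -0.0042, Psma5 to -0.017 and Psma6 to -0.032. The use of array weights turned the immunoproteasome median to 0.048, Psmb5 to 0.067, Psmb8 to 0.050, Psmg2 to -0.081, Psma5 to -0.064, Psma6 to -0.071, Afp to -0.0010 and Trf to -0.076. Averaging the probe sets of each gene turned Psma5 to -0.11. When 1 array was left out, signs turned for Psmb9 (-0.20 to 0.14), Psmd9 (-0.10 to 0.18), Psmg2 (-0.26 to 0.27), Psma3 (-0.0027 to 0.10), Psmb11 (-0.015 to 0.10), Nfe2l1 (-0.46 to 0.24), Afp (-0.020 to 0.16), Trf (-0.14 to 0.19), the immunoproteasome median (-0.20 to 0.017), Psmb8 (-0.10 to 0.084), Psma6 (-0.19 to 0.17), Psme3ip1 (-0.016 to 0.26), Xist (-2.76 to 0.56), the core chaperone median (-0.18 to 0.11), Psmb1 (-0.55 to 0.21), Psmb5 (-0.26 to 0.20), Psmg4 (-0.10 to 0.024), Psma5 (-0.26 to 0.31), Psmd11 (-0.35 to 0.015), Psmd3 (-0.13 to 0.012), the beta ring median (-0.47 to 0.077), the constitutive catalytic median (-0.48 to 0.20), Psmb3 (-0.45 to 0.027), Psmb2 (-0.49 to 0.13), Psmb6 (-0.48 to 0.30) and Psmc4 (-0.36 to 0.11). The Tmod3 call itself ended with the replicate block (limma adjusted p = 0.0897, log2 fold change -3.06) and when 1 array was left out (0.0911 without knockout replicate 1, 0.109 without its replicate 3, 0.255 and 0.0856 without wild type replicates 2 and 3). The cause of these changes was not tested.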

Other observations

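For 5 proteasome genes the array held further probe sets with the same symbol, with the same sign as the one used for 3 of them. Psma3 had 3 probe sets, with log2 fold changes of 0.05, 0.04 and 0.08. Psmc1 had -0.37 for the one used and -0.44 for the other, and Psmb3 had -0.27 and -0.36. Psma5 had 0.02 for the brighter probe set, with a mean of 5.25, and -0.24 for the dimmer one, with a mean of 2.36. Psmd2 had -0.14 and 0.06. Psma5 and Psmd2 thus differed in sign between their probe sets. A further probe set shared by Psme2 and Psme2b read 1.98, 1.84 and 2.17 in the knockout livers, against 2.09, 2.45 and 2.48 in the wild type livers.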
